A study of Mus musculus with 8 samples.

Results

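*Panx1* and the genes of its purinergic partners were read in RNA-seq libraries of mouse bone marrow-derived macrophages (BMDMs), macrophages grown from bone marrow cells. The genes chosen were the channel gene *Panx1*, the P2X receptor genes *P2rx4* and *P2rx7*, the P2Y receptor genes *P2ry2*, *P2ry6*, *P2ry12*, *P2ry13* and *P2ry14*, the ectonucleotidase gene *Entpd1* and the adenosine receptor gene *Adora2b*. They were matched by symbol and are 10 of the 22 genes of these families (*Panx1*, P2X, P2Y, adenosine receptors and *Entpd1*) in a table of 50615 genes. They were selected on counts of these same libraries over the 4 groups, and which counts set these 10 apart from the other 12 is not recorded. Levels, fold changes and calls of the 10 genes are therefore a description of the libraries, and no p-value over the list is given.

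Pannexin 1 forms a large plasma membrane channel that lets ATP and other small molecules leave the cell. Outside, ATP opens P2X receptors, which are ion channels, and nucleotides bind P2Y receptors, which signal through G proteins. CD39, the product of *Entpd1*, breaks ATP and ADP down to AMP, from which other enzymes make adenosine, the ligand of the adenosine receptors. In macrophages the chain is best known for P2X7, whose opening by ATP lets potassium out of the cell and activates the NLRP3 inflammasome.

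*Ncoa6*-KO BMDMs came from male C57BL/6 *Ncoa6* fl/fl LysM CRE mice, in which Cre is expressed from the myeloid gene *Lyz2*, and *Ncoa6*-sufficient BMDMs came from *Ncoa6* fl/fl mice, named WT in the labels, which carry the same floxed allele without Cre. Differentiation in M-CSF (20 ng/ml) took 6 days in both genotypes. Cells were then kept with medium alone or received LPS (100 ng/ml, 4 h) and after it monosodium urate (MSU) crystals (200 µg/ml, 2 h). There were 2 libraries per group, 8 in all, with totals of 25281955 to 33673552 expected counts. LPS and MSU were always given together, so their effects cannot be told apart. Cre came only with the *Ncoa6* knockout, so effects of Cre and of *Ncoa6* loss cannot be told apart either.

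*Ncoa6* counts in the *Ncoa6*-KO libraries fell by 1.05 on the log2 scale with medium alone (703 against 1460 normalized counts) and fell by 1.18 with LPS + MSU (545 against 1235), with adjusted p = 0.00236 and 0.00189 by edgeR. Without replicate 1 of the *Ncoa6*-sufficient libraries with medium alone the first of these was at 0.0515. In the paper the floxed allele has loxP flanking a single exon of *Ncoa6*, while the counts here are over the whole gene. The counts that remained therefore do not measure the loss of that exon or of the protein. All 8 macrophage markers were detected. They summed to 388721 to 577703 normalized counts in *Ncoa6*-sufficient and to 248932 to 393408 in *Ncoa6*-KO libraries. *Lyz2*, whose locus carries the Cre, held the most counts of the list in every group. Its group means (medium alone and LPS + MSU) were 240995 and 243832 against 119774 and 126325. Means of the other markers were also lower in *Ncoa6*-KO BMDMs, but unequally so. *Cd68* had 53274 and 63083 against 48758 and 60498, and *Fcgr1* had 3972 and 28631 against 955 and 11003. The part of these marker differences in the levels below was not tested. Among the markers of other cells, *Emcn* of endothelial cells, *Gp1bb* of platelets and megakaryocytes, *Cd3g*, *Cd8a*, *Trac* and *Ncr1* of T and NK cells and *Fcer1a*, *Tpsb2* and *Mcpt4* of mast cells were listed at 0 in all libraries. Other genes of these lists were detected. Group means reached 4567 normalized counts for *Vwf* and 6446 for *Kdr* (endothelial), 2431 for *Hdc* (mast cell) and 138 for *Lck* (T and NK cell). The neutrophil list summed to 573 to 1147 and the stromal list to 152 to 996 normalized counts. In bulk RNA, fewer cells of a type and less RNA per cell cannot be told apart, which holds for every level given here.

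The 10 genes lie on 6 chromosomes of GRCm38, and promoter windows of RefSeq (GRCm38.p6, 250 bases before to 50 bases after a transcript start) were found for 9 of them, in 15 windows. *Panx1* (ENSMUSG00000031934) lies on the reverse strand of chromosome 9 from 15002128 to 15045478. *Adora2b* (ENSMUSG00000018500) lies on the forward strand of chromosome 11 from 62248984 to 62266453. *P2ry14* (ENSMUSG00000036381, 59113855 to 59153618), *P2ry13* (ENSMUSG00000036362, 59207892 to 59210882) and *P2ry12* (ENSMUSG00000036353, 59216272 to 59262871) follow each other on the reverse strand of chromosome 3. *P2rx7* (ENSMUSG00000029468, 122643911 to 122691432) and *P2rx4* (ENSMUSG00000029470, 122707544 to 122729738) are neighbours on the forward strand of chromosome 5, and *P2ry6* (ENSMUSG00000048779, 100937630 to 100974649) and *P2ry2* (ENSMUSG00000032860, 100996568 to 101012866) lie close to each other on the reverse strand of chromosome 7. *Entpd1* (ENSMUSG00000048120) lies on the forward strand of chromosome 19 from 40612366 to 40741602.

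Among the chosen genes, *Panx1* had the largest log2 difference between genotypes with LPS + MSU, and *Adora2b* had the largest log2 rise. Of the 3 clustered P2Y genes, *P2ry13* and *P2ry14* rose and *P2ry12* did not. The promoter windows of these genes are given below. All are written 5′ to 3′ on the strand of the gene, at chr9:15045429-15045728 (reverse strand) for *Panx1*, chr11:62248734-62249033 (forward strand) for *Adora2b*, chr3:59262936-59263235 (reverse strand) for *P2ry12*, chr3:59210833-59211132 (reverse strand) for *P2ry13* and chr3:59131279-59131578 (reverse strand) for *P2ry14*, the window of 4 of that gene with most motif matches. Capitals mark motif matches on either strand.
Panx1: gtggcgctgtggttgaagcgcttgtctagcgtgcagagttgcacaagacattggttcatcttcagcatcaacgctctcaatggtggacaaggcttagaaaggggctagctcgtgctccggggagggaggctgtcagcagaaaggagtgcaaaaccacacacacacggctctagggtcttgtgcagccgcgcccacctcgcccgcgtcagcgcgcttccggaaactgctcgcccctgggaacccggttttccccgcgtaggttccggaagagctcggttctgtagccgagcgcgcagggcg
Adora2b: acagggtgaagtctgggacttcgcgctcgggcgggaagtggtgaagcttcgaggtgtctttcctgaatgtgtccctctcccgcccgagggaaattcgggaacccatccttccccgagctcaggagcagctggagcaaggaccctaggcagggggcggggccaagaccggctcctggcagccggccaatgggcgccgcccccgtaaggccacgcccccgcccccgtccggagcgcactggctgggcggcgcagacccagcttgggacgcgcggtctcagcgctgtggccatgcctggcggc
P2ry12: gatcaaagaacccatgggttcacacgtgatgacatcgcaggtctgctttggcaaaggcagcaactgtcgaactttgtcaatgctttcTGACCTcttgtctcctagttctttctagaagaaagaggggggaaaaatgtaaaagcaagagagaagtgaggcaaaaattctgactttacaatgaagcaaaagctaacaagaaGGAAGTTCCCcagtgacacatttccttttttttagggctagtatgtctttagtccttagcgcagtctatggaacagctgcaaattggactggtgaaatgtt
P2ry13: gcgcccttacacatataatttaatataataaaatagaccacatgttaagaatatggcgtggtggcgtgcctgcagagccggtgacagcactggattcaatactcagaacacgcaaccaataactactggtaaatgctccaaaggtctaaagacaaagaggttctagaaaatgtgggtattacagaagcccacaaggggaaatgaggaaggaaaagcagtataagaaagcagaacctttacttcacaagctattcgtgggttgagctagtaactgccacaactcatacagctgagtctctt
P2ry14: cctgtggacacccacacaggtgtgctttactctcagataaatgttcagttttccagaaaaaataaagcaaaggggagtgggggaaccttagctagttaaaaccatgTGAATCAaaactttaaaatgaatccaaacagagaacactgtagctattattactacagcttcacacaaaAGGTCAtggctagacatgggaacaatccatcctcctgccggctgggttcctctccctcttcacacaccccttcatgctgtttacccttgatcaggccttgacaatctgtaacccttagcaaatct

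Searched on both strands were the NF-kB motif GGGRNNYYCC (R for A or G, Y for C or T, N for any base) and the interferon element (GAAA, any 2 bases, GAAA). Also searched were the STAT element TTCNNNGAA, the AP-1 motif TGANTCA, the nuclear receptor hexamer AGGTCA and the cyclic AMP element TGACGTCA. The windows of *Panx1*, *Adora2b* and *P2ry13* held none of these motifs. That of *P2ry12* held 2 reverse-strand matches, NF-kB (written GGAAGTTCCC) at -51 and the hexamer (written TGACCT) at -163 from the start. That of *P2ry14* held an AP-1 match at -144 and a hexamer at -75. The matches within a window do not overlap. Of all 32851 promoter windows, 8.46% held the NF-kB motif, 7.81% the AP-1 motif and 16.3% the hexamer. These are shares of single windows, while the *P2ry14* window was picked from 4 for its matches. G and C made up 61.3% of the *Panx1* window and 70% of the *Adora2b* window, with 25 and 27 CpG dinucleotides. In the printed windows of the clustered P2Y genes they made up 42.3% (*P2ry12* and *P2ry13*) and 43.7% (*P2ry14*), with 4, 6 and 1 CpG. The other *P2ry14* windows had 43.3% to 49.3% G and C, with 3 or 4 CpG. The median over all windows was 52.7% and 7 CpG.

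Levels of different genes are compared as normalized counts per kilobase of merged exons. A normalized count is the count expected in a library of the mean effective size, 29332189. Levels per kb, their order and ratios between genes depend on the length taken. Merged exons and the longest transcript have 7025 and 3895 bases for *P2rx4*, 5580 and 4221 for *Entpd1*, and 1845 in both for *Adora2b*. With medium alone, *P2ry6* (the UDP receptor P2Y6) was highest in *Ncoa6*-sufficient BMDMs, at 1271 ± 140 per kb (SD, n = 2), followed by *P2rx4* at 731 ± 93.5. *P2rx7* (486 ± 53.6) and *Entpd1* (459 ± 28.9) came next and overlapped with each other. *Panx1* (153 ± 5.17), *P2ry2* (106 ± 5.39), *P2ry13* (68.7 ± 1.46), *P2ry12* (55.3 ± 4.88), *P2ry14* (36.3 ± 0.980) and *Adora2b* (22.3 ± 6.46) followed without overlap.

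The order changed with LPS + MSU. *P2rx4* was then highest in *Ncoa6*-sufficient BMDMs (1295 ± 119 per kb, SD, n = 2), *P2ry6* second (723 ± 138), and *P2ry13* (344 ± 29.3) and *Adora2b* (320 ± 51.1) overlapped in the places after them. *Panx1* had the lowest level per kb (47.6 ± 2.39), within the range of *P2ry12* (54.5 ± 12.1). With medium alone, *Ncoa6*-KO BMDMs had the same gene on top (*P2ry6*, 1058 ± 136), then *P2rx4* (615 ± 149), *Entpd1* (470 ± 173) and *P2rx7* (463 ± 103) with overlap, and *Panx1* at 166 ± 2.41. When stimulated, *P2rx4* (1125 ± 131) and *P2ry6* (630 ± 16.0) led, *Panx1* stood at 94.6 ± 5.67 there and *P2ry12* was lowest at 40.4 ± 17.6. The libraries of each pair of neighbours from *Adora2b* in place 3 to *Panx1* in place 9 overlapped in that group.

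**Figure D1:**
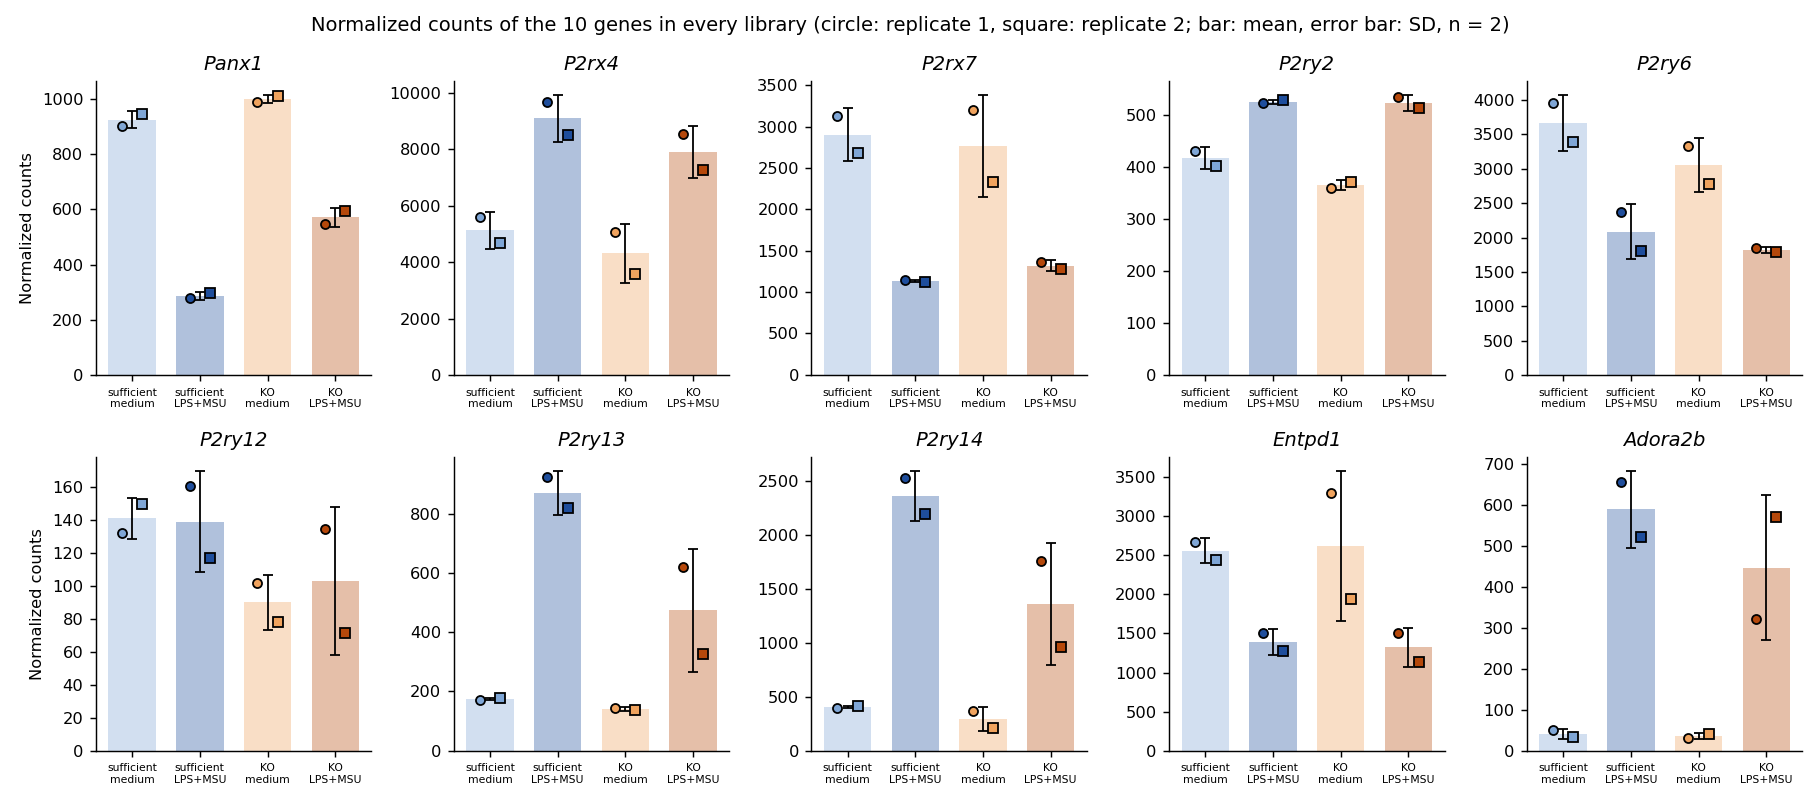
Normalized counts (y axis, linear, from 0) of the 10 genes in the 4 groups (x axis). Circles are replicate 1 and squares replicate 2, bars are means and error bars SD (n = 2). The *Panx1* libraries with LPS + MSU sit at 277 and 297 when *Ncoa6*-sufficient and at 546 and 595 when *Ncoa6*-KO.

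*Panx1* was the only one of the 10 genes that differed between genotypes past the test, and it did so with LPS + MSU. With medium alone the *Ncoa6*-sufficient libraries had 902 and 946 normalized counts and the *Ncoa6*-KO libraries 989 and 1010. With LPS + MSU they had 277 and 297 against 546 and 595. The genotypes did not overlap under either condition, and all 4 libraries with LPS + MSU were below all 4 with medium alone. The log2 difference between genotypes was 0.11 (SE 0.0919, adjusted p = 0.697) with medium alone and 0.99 (SE 0.105, adjusted p = 0.00191) with LPS + MSU, a 1.98-fold higher count. It was called in 16 of 16 alternative analyses, with the largest adjusted p at 0.0301.

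*Panx1* fell with LPS + MSU in both genotypes, to 31.1% of the medium level in *Ncoa6*-sufficient BMDMs (log2 fold change -1.69, SE 0.102, adjusted p = 1.00e-07) and to 57.1% in *Ncoa6*-KO BMDMs (-0.81, SE 0.0959, adjusted p = 2.64e-05). The difference between these responses, the interaction, was 0.88 (SE 0.140, adjusted p = 0.234 over 17625 genes). It passed in 4 of 16 alternatives (without the filter on low counts, with DESeq2, and with the replicate number as a block in 2 ways, with adjusted p = 0.0151 over all groups and 0.000170 within each genotype), and in the other 12 it did not. EdgeR called 0% of the genes tested in the interaction, with 1045 genes at an unadjusted p under 0.05, and DESeq2 called 43.

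Read over all genes, 1 of the 10 genes was called in the genotype comparison with LPS + MSU (*Panx1*, higher in *Ncoa6*-KO), where 3.59% of 17625 genes were called, 1.96% higher and 1.63% lower. With medium alone 0 of the 10 were called, where 1.88% of all genes were (0.573% higher and 1.3% lower), and *P2ry12* alone had an unadjusted value under 0.05. DESeq2 also called 0 of the 10 with medium alone. In the interaction 0 of the 10 were called by edgeR, and DESeq2 called *Panx1*. The median log2 difference of the 10 was -0.25 with medium alone and -0.20 with LPS + MSU, beside -0.03 and 0.00039 over all genes.

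**Figure D2:**
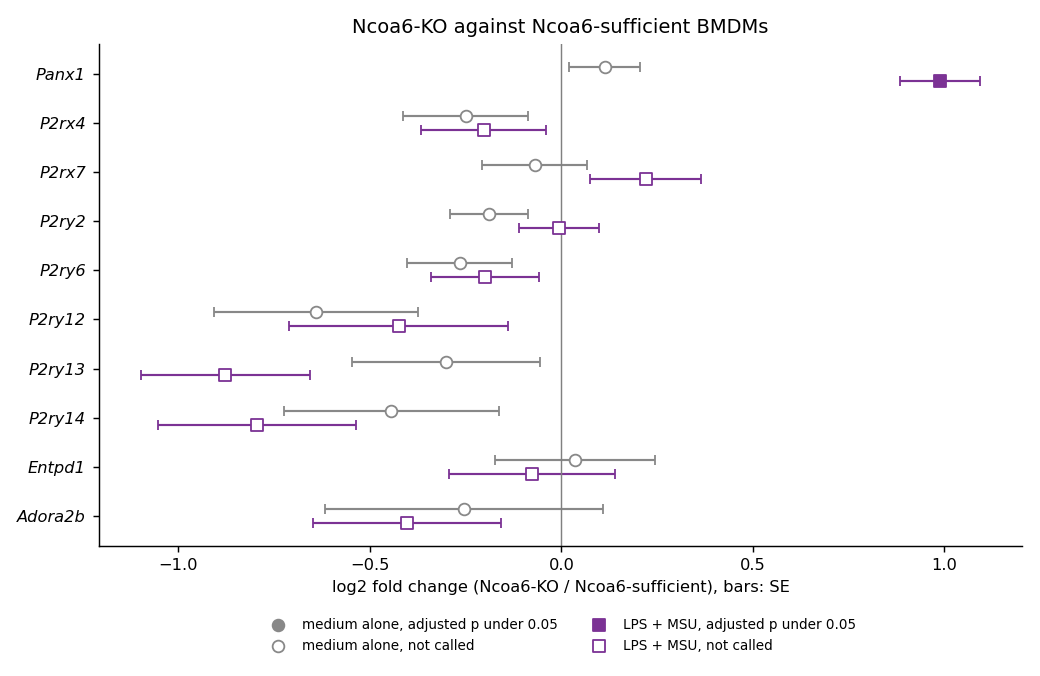
log2 fold change of *Ncoa6*-KO over *Ncoa6*-sufficient BMDMs (x axis) for the 10 genes (y axis), with medium alone (grey circles) and LPS + MSU (purple squares). Bars are standard errors and filled symbols have an adjusted p under 0.05, which only *Panx1* with LPS + MSU reached, at 0.99.

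In the response to LPS + MSU, 9 of the 10 genes were called in each genotype, where 55.2% of all genes were called (24.7% higher and 30.5% lower) for *Ncoa6*-sufficient cells and 53.1% (25.2% higher and 27.9% lower) for *Ncoa6*-KO cells. *P2rx4*, *P2ry2*, *P2ry13*, *P2ry14* and *Adora2b* rose, *Panx1*, *P2rx7*, *P2ry6* and *Entpd1* fell, and *P2ry12* was not called, in both genotypes. Both comparisons share no library but come from the same fit. The direction of *P2ry2* and the call of *P2rx4* depended on the scaling. Scaled by library totals in place of TMM factors, the median of all genes moved by -0.66 (*Ncoa6*-sufficient) and -0.63 (*Ncoa6*-KO), *P2ry2* turned to -0.34 (adjusted p = 0.0146) and -0.12 (adjusted p = 0.353), and *P2rx4* came to 0.15 and 0.24 and was not called. On that scale *P2ry12* was called lower in *Ncoa6*-sufficient BMDMs (-0.69, adjusted p = 0.0344), *P2ry6* (-1.49 and -1.38), *Entpd1* (-1.55 and -1.62), *Panx1* (-2.36 and -1.44) and *P2rx7* (-2.03 and -1.70) fell more in both genotypes, and *P2ry13* rose by 1.11 in *Ncoa6*-KO BMDMs. DESeq2's size factors moved the median by 0.11 and 0.057.

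**Figure D3:**
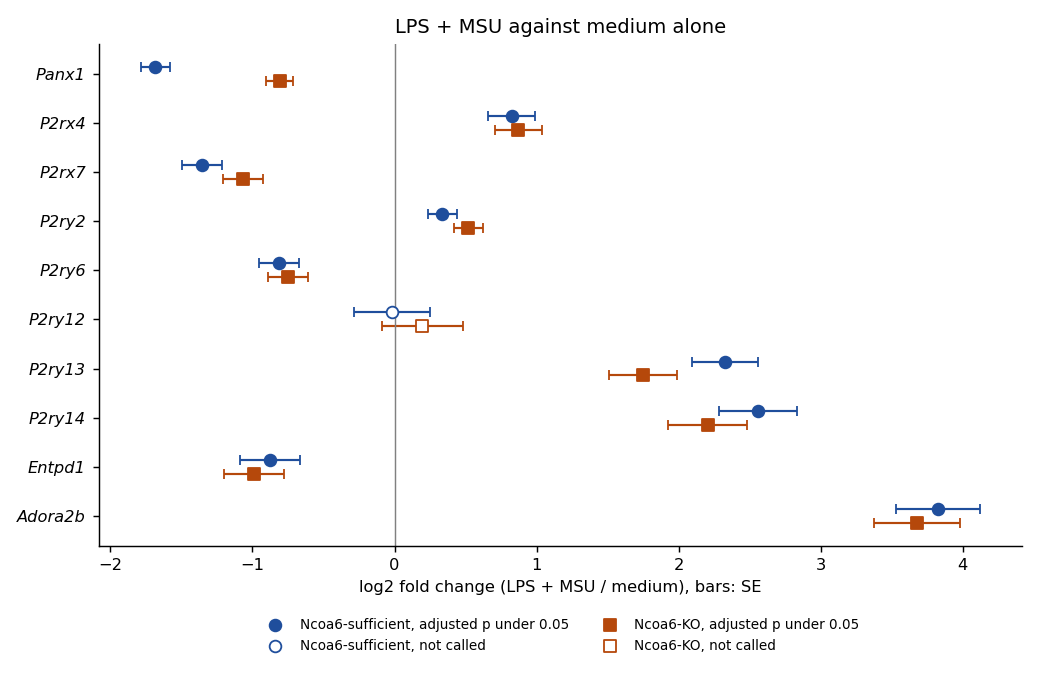
log2 fold change of LPS + MSU over medium alone (x axis) for the 10 genes (y axis) in *Ncoa6*-sufficient (blue circles) and *Ncoa6*-KO (orange squares) BMDMs. Bars are standard errors and filled symbols have an adjusted p under 0.05. *Adora2b* is farthest to the right, at 3.83 and 3.68, and *Panx1* farthest to the left in *Ncoa6*-sufficient BMDMs, at -1.69.

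The neighbouring P2X genes moved apart. *P2rx4* encodes P2X4, an ATP-gated channel found largely in lysosomes of macrophages. It had 5601 and 4672 normalized counts with medium alone, then 9687 and 8509 after LPS + MSU in *Ncoa6*-sufficient libraries. In *Ncoa6*-KO libraries it had 5058 and 3580, and 8556 and 7256. Stimulated libraries were above unstimulated ones in each genotype, and genotypes overlapped under both conditions. The log2 response was 0.82 (SE 0.164, adjusted p = 0.00121) and 0.87 (SE 0.164, adjusted p = 0.000894) under TMM scaling.

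*P2rx7* encodes P2X7, the channel that needs the highest ATP concentrations of its family. Its counts were 3128 and 2675 with medium alone, then 1144 and 1124 after LPS + MSU in *Ncoa6*-sufficient libraries, and 3200 and 2329, and 1364 and 1277, in *Ncoa6*-KO libraries. All stimulated libraries were below all unstimulated ones. *P2rx7* fell by 1.36 on the log2 scale (SE 0.143, adjusted p = 9.27e-06) in *Ncoa6*-sufficient and fell by 1.07 (SE 0.141, adjusted p = 6.44e-05) in *Ncoa6*-KO BMDMs. Both stimulated *Ncoa6*-KO libraries were above the *Ncoa6*-sufficient ones, but the log2 difference of 0.22 (SE 0.144, adjusted p = 0.484) did not pass.

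The ratio of *P2rx4* to *P2rx7* within a library does not depend on how libraries are scaled against each other. Taken per kb of exon, it was 1.52 and 1.48 in *Ncoa6*-sufficient and 1.34 and 1.31 in *Ncoa6*-KO libraries with medium alone. With LPS + MSU it was 7.19 and 6.44, and 5.33 and 4.83. It was thus higher in all 4 stimulated than in all 4 unstimulated libraries, and lower in *Ncoa6*-KO than in *Ncoa6*-sufficient libraries under both conditions, a difference that was not tested.

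**Figure D4:**
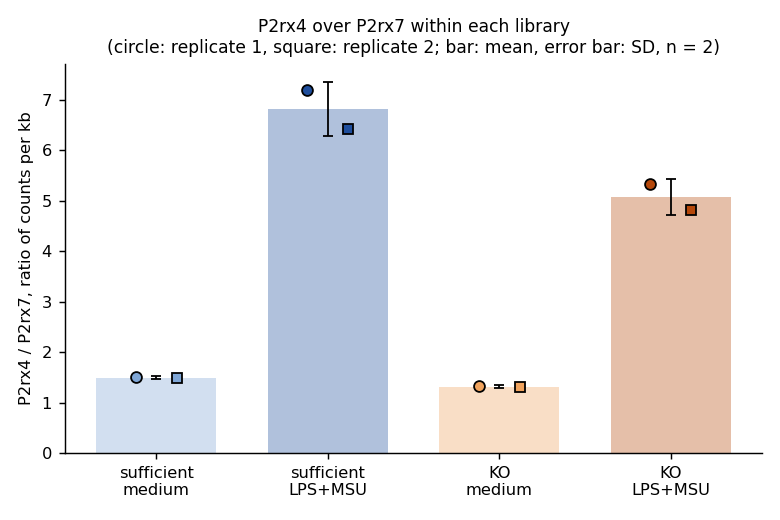
Ratio of *P2rx4* to *P2rx7* counts per kb of exon within each library (y axis, linear, from 0) in the 4 groups (x axis). Circles are replicate 1, squares replicate 2, bars means and error bars SD (n = 2). Stimulated groups have means of 6.81 (*Ncoa6*-sufficient) and 5.08 (*Ncoa6*-KO), and no unstimulated library exceeds 1.52.

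The P2Y receptors for UTP, ATP and UDP differed in direction. *P2ry2* encodes P2Y2, a receptor for ATP and UTP that serves the sensing of dying cells. It had 431 and 401 normalized counts with medium alone, then 522 and 527 after LPS + MSU in *Ncoa6*-sufficient libraries, and 359 and 371, and 533 and 512, in *Ncoa6*-KO libraries. The stimulated libraries of both genotypes interleaved, and the unstimulated *Ncoa6*-KO libraries were below the *Ncoa6*-sufficient ones without passing the test (log2 difference -0.19, SE 0.101, adjusted p = 0.493). Under TMM scaling *P2ry2* rose by 0.34 (SE 0.102, adjusted p = 0.0160) and 0.52 (SE 0.103, adjusted p = 0.00127) on the log2 scale. Without replicate 2 of the *Ncoa6*-sufficient libraries with medium alone, its rise in *Ncoa6*-sufficient BMDMs did not pass (0.28, adjusted p = 0.107), nor did it without the filter on low counts (0.31, adjusted p = 0.0586).

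*P2ry6* encodes P2Y6, the UDP receptor. Its counts were 3956 and 3385 with medium alone, then 2369 and 1805 after LPS + MSU in *Ncoa6*-sufficient libraries, and 3331 and 2776, and 1851 and 1785, in *Ncoa6*-KO libraries. All stimulated libraries were below all unstimulated ones, and the log2 response was -0.81 (SE 0.140, adjusted p = 0.000428) and -0.75 (SE 0.140, adjusted p = 0.000860). The per-kb ratio of *P2ry6* to *P2ry2* fell to means of 5.41 (*Ncoa6*-sufficient) and 4.73 (*Ncoa6*-KO), with every stimulated library at 6.17 or lower and every unstimulated one at 10.2 or higher.

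The clustered genes of chromosome 3 encode Gi-coupled receptors, P2Y12 and P2Y13 for ADP and P2Y14 for UDP-glucose and other UDP-sugars. Their responses were unequal. *P2ry13* had 171 and 176 normalized counts with medium alone, then 923 and 818 after LPS + MSU in *Ncoa6*-sufficient libraries, and 145 and 136, and 619 and 326, in *Ncoa6*-KO libraries. *P2ry14* had 393 and 409, and 2524 and 2194, in *Ncoa6*-sufficient libraries and 371 and 213, and 1760 and 956, in *Ncoa6*-KO libraries. In both genes the stimulated libraries were above all unstimulated ones, and the *Ncoa6*-KO libraries were below the *Ncoa6*-sufficient ones under both conditions.

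*P2ry13* rose 5.01-fold (log2 2.32, SE 0.233, adjusted p = 6.09e-06) in *Ncoa6*-sufficient and 3.36-fold (log2 1.75, SE 0.239, adjusted p = 8.24e-05) in *Ncoa6*-KO BMDMs. *P2ry14* rose 5.88-fold (log2 2.56, SE 0.275, adjusted p = 1.11e-05) and 4.61-fold (log2 2.21, SE 0.279, adjusted p = 4.45e-05). The differences between these responses, -0.58 for *P2ry13* and -0.35 for *P2ry14*, did not pass (adjusted p = 0.891 and 0.950). *P2ry12*, the platelet and microglia ADP receptor and target of clopidogrel, had 132 and 150, and 161 and 117, in *Ncoa6*-sufficient libraries and 101.5 and 78.2, and 135 and 71.4, in *Ncoa6*-KO libraries. Its log2 response was -0.02 (SE 0.269) and 0.20 (SE 0.283), with overlap of the conditions in both genotypes. Platelet markers summed to at most 15.8 normalized counts with medium alone and 31.4 when stimulated, with 5 of 7 at 3 counts or fewer in every library.

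With LPS + MSU the *Ncoa6*-KO counts were lower by a log2 difference of -0.88 for *P2ry13* (SE 0.221, adjusted p = 0.0578) and -0.79 for *P2ry14* (SE 0.259, adjusted p = 0.134), neither of which passed. Over the alternatives *P2ry13* passed in 4 of 16 and *P2ry14* in 3 of 16. With the replicate number as a block over all groups the differences were -0.91 (adjusted p = 0.00400) and -0.84 (adjusted p = 0.00446). The *Ncoa6*-KO libraries with LPS + MSU stood apart from each other. Replicate 1 held 1.90 times the count of replicate 2 for *P2ry13*, 1.84 times for *P2ry14* and 1.89 times for *P2ry12*. Without replicate 1 the genotype differences were -1.43 (adjusted p = 0.00521) for *P2ry13* and -1.32 (adjusted p = 0.0331) for *P2ry14*, and without replicate 2 they were -0.49 (adjusted p = 0.201) and -0.43 (adjusted p = 0.558).

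The summed stromal markers differed between the same *Ncoa6*-KO replicates, but not every marker did so in the same direction. The 8 stromal markers, all above 3 counts in some library, summed to 366 in replicate 1 and 866 in replicate 2 of the stimulated *Ncoa6*-KO BMDMs, to 152 and 498 with medium alone in that order, and to 414 to 996 in *Ncoa6*-sufficient libraries. *Col1a1* had 69.3 normalized counts in replicate 1 and 323 in replicate 2 with LPS + MSU, and 58.4 and 185 with medium alone. With LPS + MSU, *Col1a2* (79.7 and 319) and *Col3a1* (7.84 and 29.4) went the same way, as did *Cxcl12* and *Pdgfra* at low counts. *Dcn* (39.2 and 19.6), *Lum* (13.1 and 9.79) and *Pdgfrb* (137 and 130) were not higher in replicate 2 there. The part of the stromal markers in the levels of the P2Y genes was not tested.

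*P2ry12*, *P2ry13* and *P2ry14* all lie within *Med12l*, a Mediator subunit gene on the forward strand (chromosome 3, 59005825 to 59318682). The libraries were made with a stranded kit, and whether the counting used the strand is not given in the sources used here, so reads of *Med12l* and of the P2Y genes may not be fully apart. *Med12l* had 71.5 and 116, and 186 and 167, normalized counts in *Ncoa6*-sufficient libraries and 89.6 and 63.5, and 111 and 86.2, in *Ncoa6*-KO libraries. It rose in *Ncoa6*-sufficient BMDMs (log2 0.92, SE 0.256, adjusted p = 0.00997) and its value in *Ncoa6*-KO BMDMs was 0.36 (SE 0.271, adjusted p = 0.285). Its genotype difference with LPS + MSU was -0.83 (SE 0.265, adjusted p = 0.127). Within a library the per-kb ratio of *P2ry13* to *P2ry12* was 4.63 and 4.60 in the stimulated *Ncoa6*-KO libraries, whose *P2ry13* counts differed most, and 5.78 and 7.04 in the stimulated *Ncoa6*-sufficient ones. With medium alone it ran from 1.19 to 1.75 over the 4 libraries.

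*Entpd1* encodes CD39, the main ATP- and ADP-hydrolysing enzyme on macrophages. It had 2673 and 2445 normalized counts with medium alone, then 1511 and 1275 after LPS + MSU in *Ncoa6*-sufficient libraries, and 3302 and 1939, and 1502 and 1140, in *Ncoa6*-KO libraries. Stimulated libraries were below unstimulated ones, and genotypes overlapped under both conditions. *Entpd1* fell by 0.88 (SE 0.214, adjusted p = 0.00460) and fell by 0.99 (SE 0.214, adjusted p = 0.00231) on the log2 scale. Without replicate 1 of the *Ncoa6*-KO libraries with medium alone, its response there was -0.55 (adjusted p = 0.0146).

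*Adora2b* encodes A2B, an adenosine receptor of low affinity that raises cyclic AMP. It rose from 49.5 and 32.7 normalized counts to 657 and 523 in *Ncoa6*-sufficient libraries and from 29.9 and 40.4 to 321 and 572 in *Ncoa6*-KO libraries. It was at the bottom of the 10 genes per kb before the stimulus, and all stimulated libraries were far above the unstimulated ones. The rises were 14.2-fold (log2 3.83, SE 0.297, adjusted p = 7.59e-07) and 12.8-fold (log2 3.68, SE 0.306, adjusted p = 1.42e-06). With LPS + MSU the genotypes overlapped, with a log2 difference of -0.40 (SE 0.245, adjusted p = 0.445). Replicate 2 of the *Ncoa6*-KO libraries held 1.78 times the count of replicate 1, the reverse of the P2Y cluster. The genotype difference was -0.06 without replicate 1 and -0.88 without replicate 2, neither of which passed.

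Of the 12 other genes of these families, 9 passed the filter on low counts, a sum of at least 10 over the 8 libraries, as did all 10 chosen genes. The 3 that did not were *P2rx2*, *P2ry4* and *Adora1*, the last of which was listed at 0 in all libraries. The chosen 10 were not the 10 with most counts. *P2ry1* (P2Y1, an ADP receptor), *P2ry10b* and *Adora2a* (an adenosine receptor of high affinity) exceeded *P2ry12* and *Adora2b* in several groups. Pannexin genes other than *Panx1* were all but absent, with *Panx2* detected in a single library, at 1 count, and *Panx3* listed at 0.

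*P2ry1* fell more than any of the 10 genes in *Ncoa6*-sufficient BMDMs and was called higher in *Ncoa6*-KO BMDMs with LPS + MSU, as *Panx1* was. It had 418 and 518 normalized counts with medium alone, then 68.9 and 84.0 after LPS + MSU in *Ncoa6*-sufficient libraries, and 594 and 650, and 187 and 152, in *Ncoa6*-KO libraries. The log2 difference between genotypes was 0.41 (SE 0.139, adjusted p = 0.207) with medium alone and 1.15 (SE 0.192, adjusted p = 0.0116) with LPS + MSU, called in 12 of 16 alternatives. Among the alternatives that lost the call were those without either *Ncoa6*-KO library with LPS + MSU. Another was the fit without replicate 1 of the *Ncoa6*-sufficient libraries with LPS + MSU. With each library left out in turn, this log2 difference ranged from 0.98 to 1.28. *P2ry1* fell by 2.61 (SE 0.175, adjusted p = 2.30e-07) and fell by 1.87 (SE 0.156, adjusted p = 1.48e-06) on the log2 scale, and the difference of the responses was 0.74 (SE 0.238, adjusted p = 0.642) and passed in 1 of 16 alternatives, with the replicate block within each genotype (adjusted p = 0.0454).

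*Adora2a* went from 8 and 6 counts to 1412 and 1517 in *Ncoa6*-sufficient libraries and from 4 and 3 counts to 1508 and 1117 in *Ncoa6*-KO libraries. In *Ncoa6*-sufficient BMDMs this was a log2 rise of 8.46 (SE 0.201, adjusted p = 2.86e-10), and the genotypes overlapped with LPS + MSU. *Adora2a* was below *Adora2b* per kb in every unstimulated library (ratios of 0.0393 to 0.0951) and above it in every stimulated one (1.65 to 3.69). *P2ry10b* rose by 1.21 (SE 0.103) and 1.31 (SE 0.104), from means of 887 and 824 to 2045 and 2048 normalized counts. *P2rx3*, at 4 to 8 counts with medium alone, had 0 and 2 counts in stimulated *Ncoa6*-sufficient libraries and 0 in both stimulated *Ncoa6*-KO libraries. *P2rx1*, *P2rx5*, *P2rx6*, *P2ry10* and *Adora3* stayed at or below 47.0 normalized counts in every library.

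**Figure D5:**
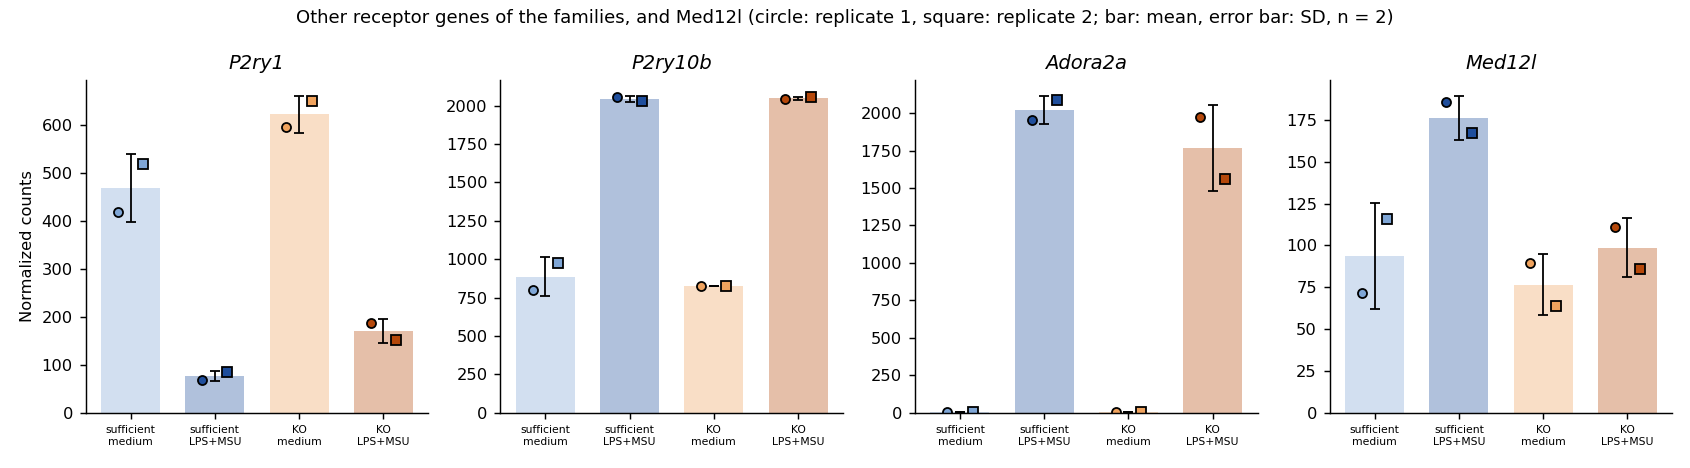
Normalized counts (y axis, linear, from 0) of *P2ry1*, *P2ry10b*, *Adora2a* and *Med12l* in the 4 groups (x axis). Circles are replicate 1, squares replicate 2, bars means and error bars SD (n = 2). *Adora2a* goes from group means of 5.58 and 2.71 to 2023 and 1767, and *P2ry1* stands at 76.4 and 170 with LPS + MSU.

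The genes around this signalling chain were taken from lists of ATP release genes, receptors, nucleotide hydrolases, adenosine handling genes and P2X7 partners. In the genotype comparison with medium alone, where 1.88% of all genes were called, 1 gene of all lists was called. It was *Pnp*, which splits inosine and guanosine, 1 of 10 tested adenosine uptake and metabolism genes. The other lists held 7 ATP release, 6 P2X, 8 P2Y and 3 adenosine receptor genes. They also held 10 cell-surface hydrolases, 5 intracellular *Entpd* genes, 15 P2X7 and pannexin partners and 6 locus neighbours. *Pnp* had 4031 against 2320 normalized counts (log2 -0.80, SE 0.156, adjusted p = 0.0310, called in 11 of 16 alternatives). Without replicate 1 of the *Ncoa6*-sufficient libraries with medium alone its log2 difference was -0.61. With LPS + MSU, where 1.96% of all genes were called higher and 1.63% lower, 1 of 7 tested ATP release genes was called (*Panx1*), 0 of 6 P2X genes, 1 of 8 P2Y genes (*P2ry1*), 0 of 3 adenosine receptor genes and 0 of 10 cell-surface hydrolases. Of 5 intracellular *Entpd* genes 2 were higher and 1 lower in *Ncoa6*-KO BMDMs, of 10 adenosine uptake and metabolism genes 2 were lower, and of 15 P2X7 and pannexin partners 1 was higher.

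The partner that was higher was *Kcnk13*, the potassium channel THIK-1, with 56.8 and 105 normalized counts in *Ncoa6*-sufficient and 175 and 248 in *Ncoa6*-KO libraries with LPS + MSU (log2 1.38, SE 0.237, adjusted p = 0.0129, called in 13 of 16 alternatives). *Slc28a2*, a sodium-coupled purine nucleoside transporter, was lower, at 27727 against 50182 (log2 -0.86, SE 0.123, adjusted p = 0.00596, 14 of 16). *Pnp2* was also lower (log2 -0.61, adjusted p = 0.0326, 9 of 16), but its reads may be shared with its near copy *Pnp*. The same holds for *Entpd4* (0.59, adjusted p = 0.0229) and *Entpd4b* (0.59, adjusted p = 0.0239), each called in 10 of 16. *Entpd7* was lower by a log2 difference of -0.46 (adjusted p = 0.0378) and *Fchsd2*, a neighbour of *P2ry2* on chromosome 7, was higher by 0.52 (adjusted p = 0.0404), each called in 7 of 16 alternatives. The calls of all 7 genes of this paragraph were lost without replicate 1 of the *Ncoa6*-sufficient and without replicate 2 of the *Ncoa6*-KO libraries with LPS + MSU, under which 60 and 58 genes in all were called in place of 632. For *Kcnk13* the values were then 1.00 (adjusted p = 0.109) and 1.11 (adjusted p = 0.132), and for *Slc28a2* -0.85 (0.0512) and -0.75 (0.0892). *Panx1* was called without each of them.

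With the stimulus, changes in these lists were larger. *Calhm6*, a member of the calcium homeostasis modulator channel family, rose from 112 and 86.9 to 16043 and 11340 normalized counts in *Ncoa6*-sufficient libraries and from 63.3 and 37.8 to 11958 and 6474 in *Ncoa6*-KO libraries. Its relative *Calhm2* (log2 -2.04 and -1.78) and *Lrrc8a*, of the volume-regulated anion channel (-1.46 and -1.28), fell in both genotypes. *Kcnk13* fell by 4.53 (SE 0.211) in *Ncoa6*-sufficient and fell by 3.09 (SE 0.185) in *Ncoa6*-KO BMDMs. *Xkr8*, a phospholipid scramblase, rose by 4.69 and 4.68, and *Slc28a2* rose by 4.82 in *Ncoa6*-sufficient BMDMs. *Cd38*, an NAD-consuming ectoenzyme, went from 6.26 and 0 to 132 and 96.5 normalized counts in *Ncoa6*-KO libraries. Both genes rose in the other genotype too. Group means went from 13.2 to 173 for *Cd38* in *Ncoa6*-sufficient and from 1282 to 27727 for *Slc28a2* in *Ncoa6*-KO BMDMs. Each gene of this paragraph was called in 17 of 17 alternatives in the comparison given, for *Slc28a2* in *Ncoa6*-sufficient and for *Cd38* in *Ncoa6*-KO BMDMs.

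Beside the 24.7% of all genes called higher and 30.5% lower in *Ncoa6*-sufficient BMDMs, and 25.2% and 27.9% in *Ncoa6*-KO BMDMs, 2 of 7 ATP release genes rose and 4 fell in each genotype, and 3 of 10 cell-surface hydrolases rose and 2 fell. Of the 15 P2X7 and pannexin partners 9 rose in each genotype, 3 fell when *Ncoa6*-sufficient and 4 when *Ncoa6*-KO, with median log2 responses of 0.82 and 1.23 beside -0.12 and -0.07 over all genes. Of 10 adenosine uptake and metabolism genes 4 rose and 2 fell in *Ncoa6*-sufficient and 3 rose and 2 fell in *Ncoa6*-KO BMDMs. Intracellular *Entpd* genes fell in 4 of 5 and 5 of 5 cases and none rose. All of these counts are under TMM scaling, from which library totals move the median of all genes by -0.66 and -0.63.

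Markers of other cells also moved with the stimulus. The dendritic cell list summed to between 18.9 and 25.7 normalized counts in unstimulated and between 167 and 278 in stimulated libraries, with *Siglech* and *Cd209a* at 3 counts or fewer. The neutrophil list summed to 573 to 712 and to 899 to 1147 in the same order, with *Ly6g* at 3 counts or fewer. The endothelial list summed to 3440 to 5571 and 6476 to 9212, with *Emcn* at 0. *Kdr* and *Vwf* held most of its counts and moved in opposite directions. Means of *Kdr* rose from 586 to 6446 in *Ncoa6*-sufficient and from 355 to 4123 in *Ncoa6*-KO BMDMs. Means of *Vwf* fell from 3074 to 2048 and from 4567 to 3359. The osteoclast list summed to 772 to 1024 and 2057 to 2339, with *Calcr* and *Oscar* at 3 counts or fewer. The mast cell list rose through *Hdc* alone (means of 7.51 and 4.54 to 2431 and 1975), its other 6 genes being at 3 counts or fewer, and the T and NK cell list through *Lck*, with the other 7 genes at 3 counts or fewer. The B cell list was at 30.7 to 50.3 with medium alone, at 33.2 and 35.8 in stimulated *Ncoa6*-sufficient and at 11.2 and 13.1 in stimulated *Ncoa6*-KO libraries. Their part in the changes of the purinergic genes was not tested.

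Genes whose pattern over the 8 libraries was most like that of a member were found by the root mean square difference of log2 normalized counts after centring, among 11184 genes. The nearest of *Panx1* were *Tspan32* (0.106), *Rcor3* (0.106) and *Haghl* (0.117). *Tspan32*, a tetraspanin gene of blood cells, went from 428 to 130 normalized counts in *Ncoa6*-sufficient and from 426 to 231 in *Ncoa6*-KO BMDMs (group means). The smallest distance was that of *Hnrnpul2* to *P2ry2*, at 0.0342, and the largest that of *Gm6904* to *Adora2b*, at 0.231. Distances were not scaled to the size of a gene's changes, which were small for *P2ry2* and large for *Adora2b*. They therefore do not rank likeness of pattern between members. Nearest to other members were *Adcy3* for *P2rx7* (0.0630), *Tbc1d14* for *P2ry6* (0.0864), *Asns* for *P2ry12* (0.142), *Nfil3* for *P2ry13* (0.117), *Tlr1* for *P2ry14* (0.176) and *Serinc5* for *Entpd1* (0.105).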

How the data were processed

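RNA of the 8 BMDM libraries was sequenced in pairs of reads from stranded poly(A) libraries of 2 mice per group. Reads were mapped by the authors to GRCm38 with STAR 2.7.3a, and the values they deposited are RSEM 1.3.3 expected counts without normalization, 50615 genes in 8 columns. Here the expected counts were rounded, genes with a sum under 10 were left out (17625 remained), and a quasi-likelihood model was fitted in edgeR 4.0.16 (R 4.3.3), with TMM factors of 0.766 to 1.29 and 4 group means, with 4 residual degrees of freedom and no replicate block (median biological coefficient of variation 0.114). Calls needed an adjusted p under 0.05 (Benjamini-Hochberg, all genes tested). Fold changes are edgeR's fitted values.

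The 10 genes, the pathway and marker lists and the tests were chosen with earlier results of these data known. Named pathway genes were, per comparison, the 5 called genes up and 5 down with the largest change among listed genes averaging 50 or more normalized counts and with no overlap between groups. Receptor genes, pannexin genes and locus neighbours could be named in addition. The block within each genotype was used only for responses and the interaction. Pattern likeness used log2 of the normalized count + 1. The p-values rest on a spread estimated for each gene over all 4 groups of 2 libraries together, with information taken from the other genes. Gene positions and merged exon lengths came from GENCODE vM21 (GRCm38), and promoters from RefSeq. Scripts were tested on simulated counts. The gene nearest in pattern to *P2rx4* is not reported here.

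Alternatives were DESeq2 1.42.0, its size factors in edgeR, library totals, edgeR's filterByExpr, no filter, limma-voom (limma 3.58.1), the replicate number as a block, only the libraries compared, another exon length and leaving out each library. Library totals, 25281955 to 33673552, were the depth of each library, and genes of few counts are given with their counts.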

Additional observations from a re-analysis of the deposited data

How the results depend on the processing

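Numbers of the 10 genes called changed as follows. With medium alone the count went from 0 to 2 without the filter (*P2ry12*, *P2ry14*). With LPS + MSU it went from 1 to 3 without the filter, to 2 with DESeq2 and to 3 with the replicate block over all groups (*Panx1*, *P2ry13*, *P2ry14*), and ranged from 1 to 3 when each library was left out (3 without replicate 1 of the *Ncoa6*-KO libraries with LPS + MSU). In the interaction it went from 0 to 1 (*Panx1*) without the filter, with DESeq2 and with both forms of the replicate block. *Panx1* was called with LPS + MSU in all of these. Over all genes, calls without the filter went from 331 to 1152 with medium alone, from 632 to 1611 when stimulated and from 0 to 269 in the interaction. The block over all groups gave 1023, 1532 and 86, and the block within each genotype gave 444 in the interaction. The latter gave no genotype difference, because replicate numbers nested in a genotype leave that contrast to single replicates. Leaving out single libraries gave as few as 22 calls with medium alone and 58 when stimulated, and comparing only the 4 libraries with LPS + MSU gave 139. The cause was not tested. The deviations of same-numbered libraries correlated at 0.31 and 0.369 between conditions of a genotype and at 0.0524 to 0.199 between genotypes. With 2 numbers per group and no label that ties a number to a mouse, libraries were left unpaired above.

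Differences that changed sign were all small or not called, except for *P2ry2* with library totals. With library totals *P2ry2* responded by -0.34 (adjusted p = 0.0146) when *Ncoa6*-sufficient and -0.12 when *Ncoa6*-KO, and differed between genotypes with LPS + MSU by 0.066, and *P2ry12* in *Ncoa6*-KO BMDMs responded by -0.44. The genotype difference of *Entpd1* was -0.014 with limma-voom and -0.00325 with the replicate block over all groups (medium alone). The response of *P2ry12* in *Ncoa6*-sufficient BMDMs was 0.092 with DESeq2's size factors and 0.092 with DESeq2, 0.018 with filterByExpr and 0.019 with only the libraries compared. The interaction of *P2rx4* was -0.0077 with DESeq2's size factors and -0.00755 with DESeq2.

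Leaving out each library in turn gave, with medium alone, genotype differences of -0.32 to 0.14 for *P2rx7*, -0.40 to 0.37 for *Entpd1* and -0.51 to 0.088 for *Adora2b*. With LPS + MSU they were -0.051 to 0.019 for *P2ry2*, -0.39 to 0.00099 for *P2ry6* and -0.30 to 0.10 for *Entpd1*. The response of *P2ry12* ranged from -0.22 to 0.24 (*Ncoa6*-sufficient) and from -0.35 to 0.58 (*Ncoa6*-KO). Interactions ranged from -0.18 to 0.32 for *P2rx4*, -0.16 to 0.23 for *P2ry6*, -0.37 to 0.55 for *P2ry12*, -0.91 to 0.11 for *P2ry14*, -0.44 to 0.32 for *Entpd1* and -0.66 to 0.16 for *Adora2b*. Of 820 values of the 10 genes under alternatives, 760 kept direction and side of the threshold, 42 changed sign and 18 crossed the threshold. Where a library was left out, its group held 1 library, which was assumed to vary like the others.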
